A study of Mus musculus with 8 samples.

Results

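Described here are 10 genes of the choroid plexus epithelium, other than transthyretin (Ttr), in frontal cortex from mice with and without HAR123. They are Kl, Clic6, Prlr, F5, Mfrp, Slc4a5, Otx2, Folr1, Kcnj13 and Sostdc1, out of 55536 genes in the count table. They were chosen by name as genes of this epithelium and selected on their higher counts in HAR123-KO, so the difference between the genotypes that is given for them is a description and carries no test. The study asked which genes depend on HAR123 in the adult frontal cortex, a region linked to cognitive flexibility.

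HAR123 is an enhancer within SMG6, conserved among mammals, that gathered many sequence changes on the way to humans. HAR123-KO mice carry a germline CRISPR-Cas9 deletion of the mouse counterpart, made in C57BL/6J embryos, and WT littermates served as controls. Strains were backcrossed to C57BL/6J, and the labels give an age of 8 weeks for all animals. The sex of the animals and the number of founder lines are not given in the sources used here. There were 4 WT and 4 HAR123-KO libraries, made from ribosome-depleted total RNA of dissected frontal cortex.

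Totals ran from 13528251 to 17051001 counts per library, but 55.1% to 58.0% of these fell on Gm42418, a gene that overlaps ribosomal RNA sequence. Counts of nuclear protein-coding genes ran from 2786320 to 3732172, so the genes described here rest on few reads. Together they had 137 raw counts over the 4 WT libraries and 588 over the 4 HAR123-KO libraries. Values below are normalized counts, meaning raw counts divided by the DESeq2 size factor of the library, which lay between 0.888 and 1.18. Counting intervals cover counting error only, since PCR copies were not marked with molecular tags.

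The choroid plexus is a sheet of epithelial cells around leaky capillaries that hangs into the brain ventricles and secretes cerebrospinal fluid. Its cells take up ions, bicarbonate, folate and hormones from blood and release proteins such as transthyretin into the fluid. Cortical tissue itself holds no choroid plexus, and the lateral ventricle that holds it is bordered by the striatum. The tissue label was checked with 10 markers of cortical excitatory neurons, whose summed normalized count was 7072 to 7307 in WT and 6565 to 6883 in HAR123-KO, and none of them was at 0. In bulk RNA, fewer cells of a type and less RNA per cell cannot be told apart.

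The 10 genes lie on 9 chromosomes, F5 and Kcnj13 both being on chromosome 1. DNA just before the start site of 3 of them is shown because these genes stand for the range of the data: Kl had the highest summed counts, Mfrp had no read in any WT library, and Kcnj13 lies inside another gene. The sequences are RefSeq starts in GRCm38.p6, written 5′ to 3′ on the strand of the gene. Capitals mark TAATCC on either strand (GGATTA is the same motif read on the other strand), the core bound by homeodomain proteins of the OTX class. The windows are chr5:150952357-150952606 for Kl, chr9:44101520-44101728 for Mfrp and chr1:87394730-87394979 for Kcnj13.
Kl: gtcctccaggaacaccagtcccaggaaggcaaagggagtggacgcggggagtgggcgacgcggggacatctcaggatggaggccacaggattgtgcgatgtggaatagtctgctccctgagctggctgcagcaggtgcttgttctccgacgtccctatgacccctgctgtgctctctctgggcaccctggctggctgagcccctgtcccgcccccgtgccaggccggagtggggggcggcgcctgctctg
Mfrp: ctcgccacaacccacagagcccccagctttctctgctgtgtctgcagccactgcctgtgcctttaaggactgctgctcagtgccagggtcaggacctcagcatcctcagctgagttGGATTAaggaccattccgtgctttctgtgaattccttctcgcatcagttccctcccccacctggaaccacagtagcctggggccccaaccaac
Kcnj13: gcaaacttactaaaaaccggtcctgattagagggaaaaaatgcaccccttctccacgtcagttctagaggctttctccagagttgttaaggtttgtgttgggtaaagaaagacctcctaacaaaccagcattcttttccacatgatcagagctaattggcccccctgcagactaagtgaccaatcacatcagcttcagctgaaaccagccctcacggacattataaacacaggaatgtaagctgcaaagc

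The Kl and Kcnj13 windows end at the start site and hold no copy of the motif. The Mfrp window ends 41 bases before its RefSeq start, where exon sequence of the longer annotated transcript begins, and its motif starts 134 bases before that start. Of the 7 genes with an entry, Mfrp and Otx2 had the motif within 250 bases of at least 1 start site, which is 2 of 12 windows (16.7%). The Otx2 match was upstream of a start site whose whole window is annotated as Otx2 exon sequence, and the windows of 2 other Otx2 start sites overlap each other. The motif was in 2054 of the 32851 windows of all genes (6.25%). Counted by gene, it was in 1949 of 27025 genes (7.21%) and in 3 of 25 other choroid plexus genes. A match of 6 letters is only a description of the sequence. Clic6, Folr1 and Sostdc1 had no entry.

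Pooled over the 10 genes, HAR123-KO libraries held 4.13 times the normalized count of WT libraries. The WT libraries had 30.4, 32.9, 34.7 and 39.6 (34.4 ± 3.88, SD, n = 4). The HAR123-KO libraries had 133.1, 134.1, 174.3 and 126.6 (142 ± 21.8, SD, n = 4). The highest WT library was below the lowest HAR123-KO library, a separation that the selection of these genes builds in. Counting alone gave 95% Poisson intervals of 27.9 to 54.6 for the former and 104.8 to 151.4 for the latter.

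The plot of single genes gives the same picture gene by gene. In 9 of 10 genes every HAR123-KO library was above every WT library, whereas 3.27% of the 19456 genes that averaged 2 or more normalized counts had this pattern, and 1.8% of those with a mean of 2 to 10. The other direction, every HAR123-KO library below every WT library, was seen in 3.03%. All 10 means were higher in HAR123-KO, against 49.7% of genes, and all 10 were over 2 times higher, against 1.63%. Since these genes were selected on this contrast, the counts describe them and support nothing further.

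**Figure D1:**
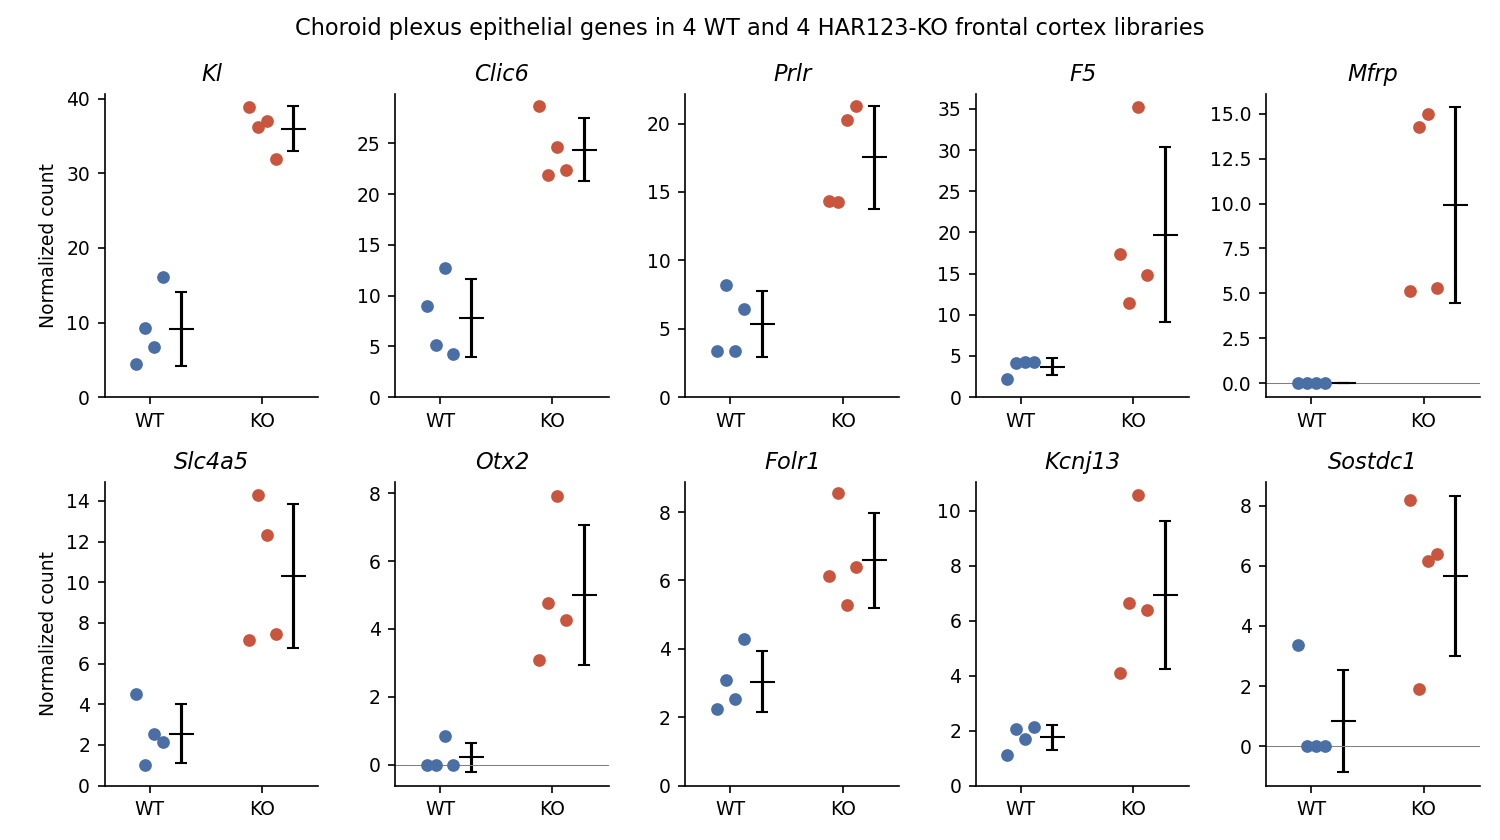
Normalized count (y axis, linear, a separate scale for each gene) of each of the 10 genes in WT (blue) and HAR123-KO (red) libraries; points are the 4 libraries of a genotype in replicate order, and the black mark is the mean with its SD. Only Sostdc1 overlaps between the genotypes, and Mfrp is at 0 in all 4 WT libraries.

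Kl, Prlr and Folr1 encode receptors or coreceptors at the cell surface. Kl (ENSMUSG00000058488, chromosome 5, 150952607 to 150993817) encodes klotho, which pairs with FGF receptors to bind FGF23 and is shed into cerebrospinal fluid. Its normalized counts were 4.5, 9.3, 6.8 and 16.0 in WT and 38.9, 36.1, 37.0 and 31.9 in HAR123-KO. Every HAR123-KO library had about the same level, while WT replicate 4 stood above the other WT libraries. The mean went from 9.15 ± 4.99 to 36.0 ± 2.95 (SD, n = 4), which is 1.99 ± 0.32 (SE) as a log2 ratio fitted by DESeq2.

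Prlr (ENSMUSG00000005268, chromosome 15, 10177238 to 10349180) encodes the prolactin receptor, a receptor of the cytokine class that signals through JAK and STAT proteins. Its normalized counts were 3.4, 8.2, 3.4 and 6.4 in WT and 14.3, 14.3, 20.2 and 21.3 in HAR123-KO. The means were 5.36 ± 2.39 and 17.5 ± 3.75 (SD, n = 4), which is 1.72 ± 0.44 (SE) as a log2 ratio. The genotypes did not overlap.

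Folr1 (ENSMUSG00000001827, chromosome 7, 101858331 to 101870788) encodes folate receptor alpha, which moves folate from blood into cerebrospinal fluid. It showed the smallest difference of the 10, with 2.3, 3.1, 2.5 and 4.3 normalized counts in WT and 6.1, 8.6, 5.3 and 6.4 in HAR123-KO. The means were 3.04 ± 0.90 and 6.59 ± 1.39 (SD, n = 4), which is 1.12 ± 0.64 (SE) as a log2 ratio, from 12 and 27 raw counts.

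Clic6, Slc4a5 and Kcnj13 encode proteins of ion transport. Clic6 (ENSMUSG00000022949, chromosome 16, 92485736 to 92541243) belongs to the chloride intracellular channel family. Its normalized counts were 9.0, 5.1, 12.7 and 4.3 in WT and 28.7, 21.9, 24.7 and 22.3 in HAR123-KO. The means were 7.79 ± 3.87 and 24.4 ± 3.11 (SD, n = 4), which is 1.61 ± 0.37 (SE) as a log2 ratio. As for Kl, the WT libraries were spread more widely for their level than the HAR123-KO libraries, with coefficients of variation of 49.7% and 12.7% (54.6% and 8.21% for Kl). Fewer reads in WT widen this spread by counting alone. Of the genes with WT counts, only F5 (26.4% and 53.8%) and Kcnj13 (26.3% and 38.8%) went the other way.

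Slc4a5 (ENSMUSG00000068323, chromosome 6, 83219828 to 83304945) encodes a sodium bicarbonate cotransporter of the ventricular face of the cells. It had 4.5, 1.0, 2.5 and 2.1 normalized counts in WT and 7.2, 14.3, 12.3 and 7.4 in HAR123-KO. HAR123-KO replicates 2 and 3 were well above replicates 1 and 4. The means were 2.55 ± 1.45 and 10.3 ± 3.55 (SD, n = 4), which is 2.04 ± 0.62 (SE) as a log2 ratio.

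Kcnj13 (ENSMUSG00000079436, chromosome 1, 87386363 to 87394729) encodes an inwardly rectifying potassium channel. It had 1.1, 2.1, 1.7 and 2.1 normalized counts in WT and 4.1, 6.7, 10.6 and 6.4 in HAR123-KO. The genotypes did not overlap, although only 7 and 29 raw counts lay behind the values. The means were 1.75 ± 0.46 and 6.92 ± 2.68 (SD, n = 4), which is 1.99 ± 0.75 (SE) as a log2 ratio.

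F5 and Sostdc1 encode secreted proteins. F5 (ENSMUSG00000026579, chromosome 1, 164151838 to 164220277) encodes coagulation factor V, the cofactor that speeds the formation of thrombin. It had 2.3, 4.1, 4.2 and 4.3 normalized counts in WT and 17.4, 11.4, 35.2 and 14.9 in HAR123-KO. The HAR123-KO mean of 19.7 ± 10.6 (SD, n = 4) was spread widely, replicate 3 alone having 40 of the 83 raw counts. The WT mean was 3.72 ± 0.98 (SD, n = 4), and the log2 fold change was 2.40 ± 0.50 (SE).

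Sostdc1 (ENSMUSG00000036169, chromosome 12, 36314139 to 36318452) encodes a secreted antagonist of BMP and modulator of Wnt signalling. It was the only 1 of the 10 whose genotypes overlapped, with 3.4 normalized counts in WT replicate 1, 0 in the other WT libraries, and 8.2, 1.9, 6.2 and 6.4 in HAR123-KO. All 3 WT reads came from 1 library. The ratio of summed counts, HAR123-KO over WT, was 7.42, with an exact counting interval of 2.24 to 38.6.

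Mfrp (ENSMUSG00000034739, chromosome 9, 44101729 to 44109187) encodes a frizzled-related membrane protein known from the retinal pigment epithelium. It was at 0 in all 4 WT libraries and at 5.1, 14.3, 14.97 and 5.3 normalized counts in HAR123-KO (9.92 ± 5.43, SD, n = 4), from 42 raw counts. Against a floor of 3 counts over the WT libraries together, it was 13.6-fold higher in HAR123-KO. That value leaves out the counting error of the HAR123-KO reads, so it is no lower limit. Its 4 HAR123-KO values fell into a low pair and a high pair, replicates 1 and 4 against replicates 2 and 3, the same pairs as for Slc4a5.

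Otx2 (ENSMUSG00000021848, chromosome 14, 48657677 to 48673819) encodes the homeodomain transcription factor that the choroid plexus needs to form and to persist. A single raw read, in replicate 3, was seen over the WT libraries (0.85 normalized counts), against 3.1, 4.8, 7.9 and 4.3 normalized counts in HAR123-KO. The ratio of summed counts was 20.3, with an exact counting interval of 3.27 to 841, so that the size of the difference is poorly set at this depth. The HAR123-KO mean was 5.001 ± 2.07 (SD, n = 4).

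Genes with a mean under 10 normalized counts (Mfrp, Slc4a5, Otx2, Folr1, Kcnj13 and Sostdc1) were pooled, Slc4a5 being the highest of them with 6.43 over all libraries and Prlr the lowest of the rest with 11.4. Their sum was 11.3, 6.2, 7.6 and 8.6 in WT and 33.8, 50.4, 57.2 and 36.2 in HAR123-KO. The means were 8.40 ± 2.14 and 44.4 ± 11.3 (SD, n = 4), a ratio of 5.28 from 33 and 185 raw counts. The sum of Kl, Clic6, Prlr and F5 went from 26.01 ± 4.97 to 97.6 ± 14.5 (SD, n = 4), a ratio of 3.75. On the log2 scale these ratios are 2.40 and 1.91, and the low-count pool was at 1.81 without Mfrp, Otx2 and Kcnj13, which share exon bases with other genes. Leaving out Kl, the gene with most counts, gave a ratio of 4.20 for the other 9.

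The share of the pool held by a gene was close between genotypes for some genes and not for others. Kl made up 26.6% of the pooled WT mean and 25.3% of the pooled HAR123-KO mean, Slc4a5 7.42% and 7.25%, and Kcnj13 5.10% and 4.88%. Clic6 went from 22.6% to 17.2%, Prlr from 15.6% to 12.3% and Folr1 from 8.83% to 4.64%. F5 went from 10.8% to 13.9%, Mfrp from 0 to 6.98%, Otx2 from 0.62% to 3.52% and Sostdc1 from 2.45% to 3.98%. No test was made of these shares. The highest of the HAR123-KO libraries was replicate 3 for 4 of the genes, replicate 1 for 3, replicate 2 for 2 and replicate 4 for 1.

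Ttr, the most abundant secreted product of this epithelium, served as reference. It had 65.3, 74.1, 62.7 and 70.6 normalized counts in WT and 651, 661, 616 and 637 in HAR123-KO, and its mean was 9.41 times higher. Its HAR123-KO libraries were far more alike than those of the pooled genes. Replicate 3, with the highest pool (174.3), had the lowest Ttr (616).

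Relative to Ttr, the pool was lower in HAR123-KO. WT libraries had 444 to 561 pooled counts per 1000 Ttr counts (506 ± 59.8, SD, n = 4), and HAR123-KO libraries had 199 to 283 (222 ± 40.5, SD, n = 4), with no overlap. Per 1000 Ttr counts added in HAR123-KO, the pool gained 188 counts, of which Kl gave 46.8 and Folr1 6.20. Every WT library was above 188 on this scale.

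**Figure D2:**
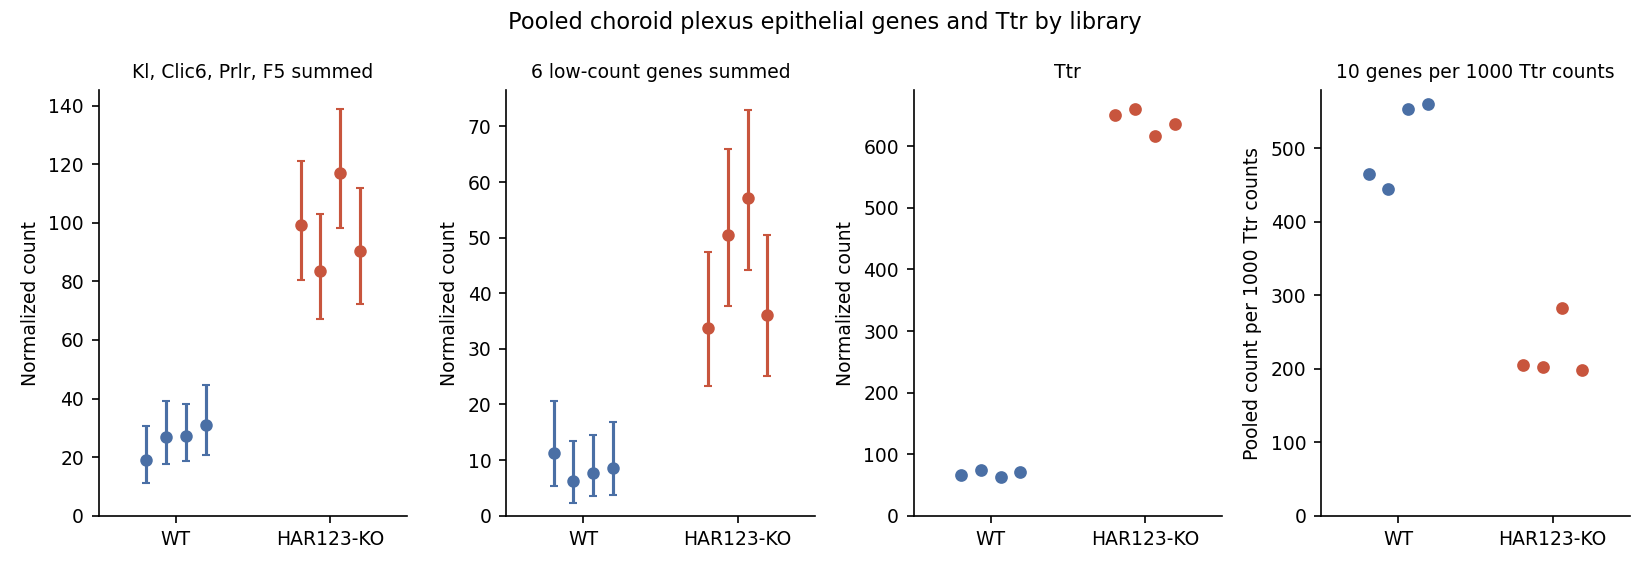
Sums by library in WT (blue) and HAR123-KO (red), 4 libraries each in replicate order, all y axes linear from 0: Kl, Clic6, Prlr and F5 together, the 6 low-count genes together, Ttr, and the 10 genes per 1000 Ttr counts; bars on the left pair of panels are 95% Poisson counting intervals. The sums are 3.75 and 5.28 times higher in HAR123-KO and Ttr 9.41 times, so the ratio to Ttr is lower (222 against 506).

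Per kb of exon, the only scale on which levels of different genes can be compared, the HAR123-KO order was Clic6 (6.23 ± 0.79 normalized counts per kb, SD, n = 4), Kcnj13 (5.45 ± 2.11), Kl (3.86 ± 0.32), Sostdc1, Folr1, F5, Mfrp, Slc4a5, Otx2 (1.18 ± 0.49) and Prlr (1.14 ± 0.24). Neighbours in this order did not differ beyond their spread, the mean ± SD of each overlapping that of the next. Clic6 and Kl, a place apart, did not overlap in this sense. Prlr was last although it ranked high by counts, its annotated exons being 15339 bases long against 1270 for Kcnj13. In WT the order began with Clic6 (1.99 ± 0.99), Kcnj13 (1.38 ± 0.36) and Folr1 (1.32 ± 0.39). Ttr stood at 57.5 ± 4.34 in WT and 541 ± 16.3 in HAR123-KO, far above all 10. The places of Kcnj13 and Mfrp are uncertain. Gigyf2 shares 49.1% of the exon bases of Kcnj13, and C1qtnf5 36.7% of those of Mfrp. How reads there were assigned is not known.

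**Figure D3:**
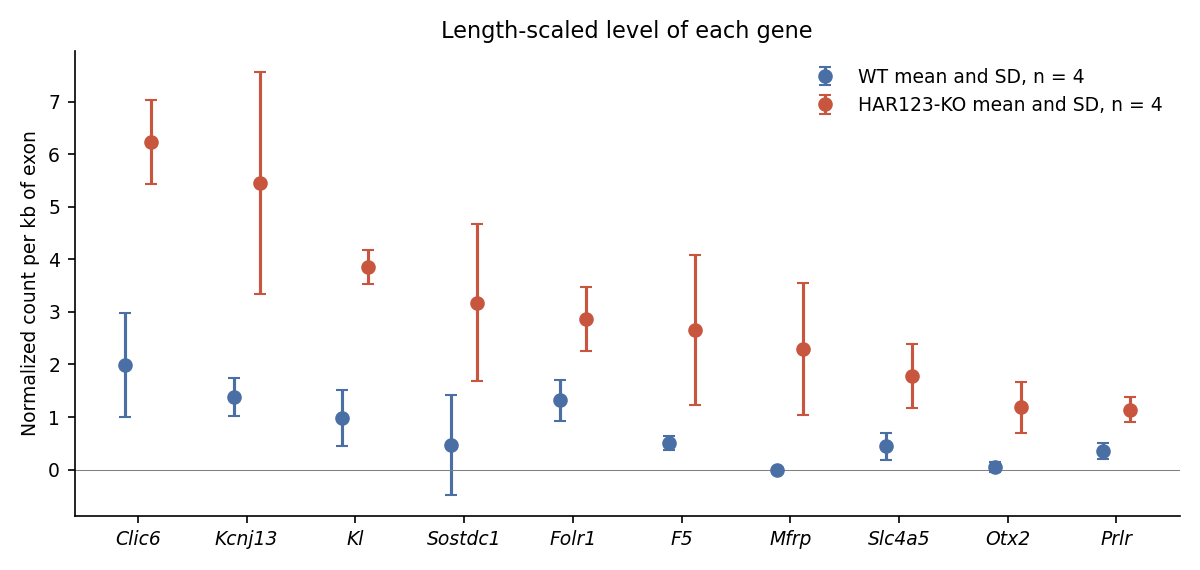
Mean normalized count per kb of annotated exon (y axis, linear) with its SD over 4 libraries for each gene (x axis, in the order of the HAR123-KO mean), in WT (blue) and HAR123-KO (red). Clic6 is highest in both genotypes (1.99 and 6.23) if all exon bases of Kcnj13, 49.1% of them shared with Gigyf2, are counted as its own, and the SDs of neighbouring genes overlap in HAR123-KO.

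Calls across all genes depended on which genes a tool keeps. To be past the threshold a gene needed a log2 fold change beyond 0.5 in size and a DESeq2 adjusted p under 0.05. The independent filter of DESeq2, set here at a mean of 17.6 normalized counts, left only Kl with an adjusted p, and Kl was past the threshold. Without WT replicate 3, WT replicate 4, HAR123-KO replicate 1 or HAR123-KO replicate 4 the filter left none of the 10 with an adjusted p. Of all 12758 genes that passed the filter with every library in, 29 (0.227%) were past it as higher and 9 (0.0705%) as lower. With no filter, Kl, Clic6, Prlr, F5 and Mfrp were past it, against 0.104% of 29947 genes. The edgeR quasi-likelihood test kept 4 of the 10 and called all 4 (Kl, Clic6, Prlr and F5), against 0.331% of 14503 genes. These are the calls of the contrast on which the genes were selected, so nothing is read from them.

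Shared exon sequence can move reads between genes, and 5 of the 10 share exon bases with another annotated gene. All 1589 exon bases of C1qtnf5, which encodes a secreted C1q-family protein, lie within the exons of Mfrp and make up 36.7% of them. C1qtnf5 was at 0 in every library. Gm20444, on the opposite strand, has all its 648 exon bases within Mfrp exons. It had means of 0.80 in WT, where Mfrp was at 0, and 0.26 in HAR123-KO. How reads within both Mfrp and C1qtnf5 were assigned is not given in the sources used here. Kcnj13 lies inside Gigyf2 on the opposite strand, and 623 of its 1270 exon bases (49.1%) are also exon of Gigyf2, which encodes a regulator of translation.

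Gigyf2 averaged 429 ± 27.7 normalized counts in WT against 436 ± 42.3 (SD, n = 4) in HAR123-KO, differing by 0.02 ± 0.07 on the log2 scale (SE, DESeq2 adjusted p = 0.990). The library kit keeps strand, but whether counting used it was not stated, so Kcnj13 counts are uncertain. The Gm20444 counts in WT, where Mfrp had none, are what counting by strand would give, but they are few. Otx2 shares 154 bases with the opposite-strand Otx2os1 (0 in WT, 1.23 ± 0.94 in HAR123-KO) and 168 with Gm49154. The overlaps of Prlr with Gm21973 (1.32% of Prlr) and of F5 with Gm16548 (3.53% of F5) were small, and both partners were at 0. Mfrp also shares 54 bases with Rnf26. Folr1 overlaps Anapc15, Clic6 overlaps 2410124H12Rik, F5 holds Gm16588 and Mfrp lies inside Gm49380 with no shared exon base. Without the 5 genes that share bases, the pooled log2 ratio was 1.83 in place of 2.04.

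Other choroid plexus genes were compared as a list of 30, chosen with earlier results of these data known. The filter left 12 of them with a DESeq2 adjusted p, none past the threshold, and could not call the rest. By edgeR, which kept 15, 1 was called, Tmem72. Of the 23 that averaged 2 or more normalized counts, 9 were higher and 0 lower at an unadjusted p under 0.05, where 3.55% and 3.19% of all genes at that level were. Among the 23, 20 had the higher mean in HAR123-KO and 5 had no overlap between genotypes (3.27% of all genes). Their median log2 fold change was 0.34, against -0.0015 for all genes at that level. The list's sum was 1498 to 1597 in WT and 1916 to 2077 in HAR123-KO.

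Most of that sum was Enpp2, which encodes the lysophospholipase autotaxin and is also made by oligodendrocytes. Enpp2 went from 889 ± 24.0 to 1197 ± 45.9 (SD, n = 4), 0.43 ± 0.04 on the log2 scale (SE, DESeq2 adjusted p = 5.4e-20). It passed the test but not the minimum fold. Without that minimum, 0.972% of genes were higher and 0.713% lower. Slc4a2, an anion exchanger, had 107 ± 5.78 and 134 ± 3.01 normalized counts (SD, n = 4, DESeq2 adjusted p = 0.193), and Cab39l 88.5 ± 4.11 and 93.9 ± 8.96 (adjusted p = 0.962).

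Of that list, 14 genes had a mean under 10 normalized counts, and all 14 had the higher mean in HAR123-KO. In 3 of the 14 (1500015O10Rik, Aqp1 and Kcne2) every HAR123-KO library was above every WT library, which held for 1.8% of all genes with a mean of 2 to 10, a range that Kcne2 and some others of the 14 lie below. The genes named in this paragraph were chosen after their values were seen. 1500015O10Rik had 3.1 to 5.3 in WT and 8.8 to 20.9 in HAR123-KO, and Aqp1, a water channel, 0 to 3.4 and 4.4 to 10.2. Kcne2, a subunit of potassium channels, had 1 raw count over the WT libraries and 1 to 4 in each HAR123-KO library, so the nearest libraries tie in reads and are parted by size factors alone (0.847 against 0.951 normalized counts).

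The other low-count genes of the list overlapped between genotypes, among them Rdh5 (7.58 ± 3.08 and 7.83 ± 1.53 normalized counts, SD, n = 4) and Cldn1 (2.88 ± 2.83 and 4.43 ± 1.18), and Igfbp2, Slc5a5 and Stra6, with more counts, had the lower mean in HAR123-KO. Slc5a5 had 38.6 ± 7.21 and 33.5 ± 7.54. Tmem72, with a mean of 12.2, had 1.1, 12.4, 0.85 and 2.1 normalized counts in WT and 17.4, 15.2, 18.5 and 29.8 in HAR123-KO. WT replicate 2 was far above the other WT libraries.

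**Figure D4:**
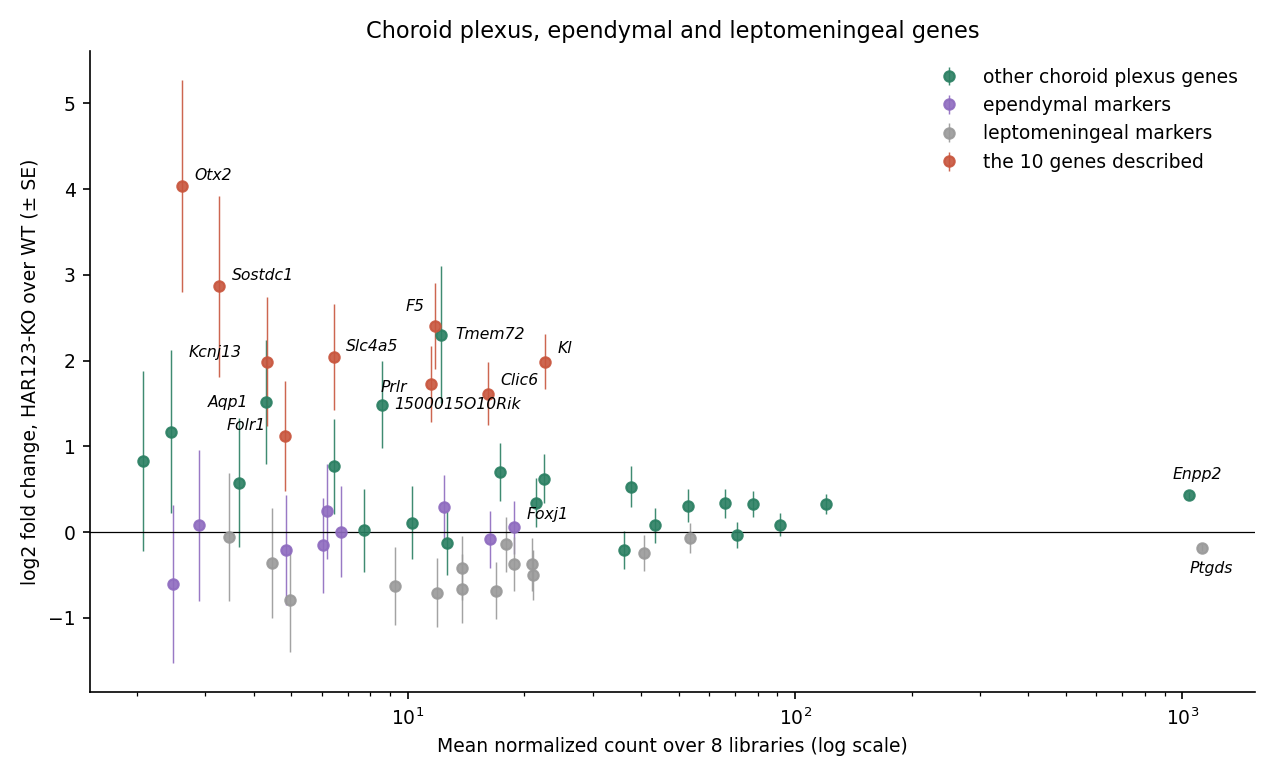
Log2 fold change of HAR123-KO over WT with its SE (y axis) against the mean normalized count over the 8 libraries (x axis, log scale) for genes that average 2 or more, in 4 sets: the genes described here (red), other choroid plexus genes (green), ependymal markers (purple) and leptomeningeal markers (grey). Mfrp is left out because its WT counts are 0, the Otx2 and Sostdc1 values rest on 1 and 3 WT reads, and the medians of the other sets are 0.34, 0.01 and -0.38.

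Markers of cells that border the choroid plexus or its ventricle were followed in the same way, also in lists chosen with earlier results known. Of 12 ependymal markers, 8 were higher and 4 lower in HAR123-KO, and none had an unadjusted p under 0.05. The filter left 1 of the 12 with a DESeq2 adjusted p and edgeR kept 3, none of them past the threshold, so most could not be called. Foxj1, the regulator of motile cilia, had 18.4 ± 2.83 and 19.2 ± 5.22 normalized counts (SD, n = 4), Hydin 16.6 ± 5.44 and 15.9 ± 3.81, and Rsph1 11.05 ± 2.85 and 13.7 ± 2.59. The ependymal sum was 69.5 to 86.4 in WT and 66.9 to 94.7 in HAR123-KO, so the genotypes overlapped fully.

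All 15 leptomeningeal and perivascular fibroblast markers had the lower mean in HAR123-KO (median log2 fold change -0.38). Their sum was 1445 to 1507 in WT and 1219 to 1307 in HAR123-KO, most of it from Ptgds. Of the 7 with a DESeq2 adjusted p and the 11 kept by edgeR none was past the threshold, and 2 of the 15 were lower at an unadjusted p under 0.05 (3.19% of all genes). Ptgds, a prostaglandin synthase, passed the test without the minimum fold (1194 ± 18.9 to 1051 ± 23.9 normalized counts, SD, n = 4, log2 fold change -0.18 ± 0.04, SE, DESeq2 adjusted p = 0.000713), and Col1a2 and Col1a1 did not. Endothelial markers were lower in 10 of 11, with a sum of 441 to 493 in WT and 387 to 412 in HAR123-KO, none past the threshold by DESeq2 (9 with an adjusted p) or edgeR (11 kept), and 3 of 11 lower at an unadjusted p under 0.05. Their highest members were Flt1, a VEGF receptor (127 ± 5.81 to 101 ± 2.005, adjusted p = 0.222), Slco1a4 and Tek.

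Markers of striatal projection neurons were followed as well. All 10 had the higher mean in HAR123-KO (49.7% of genes averaging 2 or more normalized counts did), and their sum was 4337 to 4492 in WT and 5758 to 5945 in HAR123-KO. Drd2, the dopamine receptor of the indirect pathway, rose by 0.65 ± 0.11 on the log2 scale (SE, DESeq2 adjusted p = 2.4e-06). Adora2a, an adenosine receptor, rose by 0.51 ± 0.10 (SE, DESeq2 adjusted p = 9.7e-05), and Penk, the enkephalin precursor, by 0.80 ± 0.05 (SE, DESeq2 adjusted p = 7.2e-46). These 3 of 10 were past the threshold (0.227% of genes), and 8 were higher without the minimum fold (0.972% of genes), among them Pde10a and Ppp1r1b. This list was chosen with earlier results of these data known. The paper's supplement reports Drd2, Adora2a and Penk as differentially expressed, so these shares support nothing further. Of the 10 cortical markers none was past the threshold by DESeq2, 8 having the lower mean in HAR123-KO and 2 (Foxp2 and Bcl11b) the higher, and 2 were lower and 1 higher at an unadjusted p under 0.05. Slc17a7 and Cux2 were lower without the minimum fold (log2 fold changes -0.16 ± 0.03 and -0.20 ± 0.05, SE, DESeq2 adjusted p = 8.2e-06 and 0.0167). Rorb did not pass. Foxp2 and Bcl11b, both named after their values were seen, are transcription factors of deep-layer cortical neurons that striatal projection neurons also express. Foxp2 averaged 140 ± 8.61 across WT libraries against 175 ± 16.8 across HAR123-KO libraries (SD, normalized counts), and the groups did not overlap. Its log2 fold change was 0.32 ± 0.11 (SE), with an adjusted p of 0.102 by DESeq2 and 0.0283 by edgeR's quasi-likelihood test. The part of tissue makeup in the counts of the 10 genes was not tested.

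Partners of the 10 genes in their pathways were followed in 6 lists of 52 genes, of which 9 were at 0 in every library. These lists too were chosen with earlier results of these data known. The filter left 32 with a DESeq2 adjusted p and edgeR kept 37, and none of these was past the threshold. Of the 40 that averaged 2 or more normalized counts, 12 had the higher mean in HAR123-KO and 28 the lower (49.7% of all genes at that level had the higher), and 4 were higher and 2 lower at an unadjusted p under 0.05, where 3.55% and 3.19% of all genes at that level were. Among partners of klotho and the prolactin receptor, Fgfr3 (287 ± 26.6 and 275 ± 29.2 normalized counts), Jak2 (189 ± 17.9 and 184 ± 6.57) and Fgfr2 (161 ± 5.02 and 199 ± 17.3, DESeq2 adjusted p = 0.0986) had the most counts (SD, n = 4), and Prl and Fgfr4 were at 0. Among folate carriers and enzymes, Mthfd1 and Slc19a1 had log2 fold changes of -0.01 and -0.28, neither past the test.

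Of the ion transporters, Atp1b1 (3572 ± 31.6 and 3501 ± 87.5 normalized counts, SD, n = 4) and the bicarbonate transporter Slc4a10 did not pass the test. Slc12a2, the sodium potassium chloride cotransporter of many cells including this epithelium, passed it without the minimum fold (log2 fold change 0.27 ± 0.07, SE, DESeq2 adjusted p = 0.00979). Partners of factor V were F3, Thbd and Pros1, with log2 fold changes of -0.20, -0.53 and -0.06 that did not pass, and F2, F10 and Proc at 0. Of BMP ligands and LRP receptors, Lrp6 (log2 fold change 0.20), Lrp4 (-0.12) and Bmp7 (-0.10) had the most counts and did not pass, and Sost, the paralogue of Sostdc1, was at 0. Of relatives of Mfrp and Otx2, Fzd4 and Otx1 did not pass, and Crx and Gbx2 were at 0. Fzd5 had 7.85 ± 4.90 and 16.0 ± 1.53 normalized counts (SD, n = 4), with WT replicate 1 (14.6) inside the HAR123-KO range (14.3 to 17.6). C1qtnf5 was also at 0, but all its exon bases lie within Mfrp exons, so its reads may have been left uncounted.

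Genes with the profile most like that of the pool over the 8 libraries were sought outside the 10 genes. The search covered the other 14460 genes that averaged 10 or more normalized counts. Likeness was the root mean square difference of log2(normalized count + 1), each profile taken relative to its WT mean, and its median over all these genes was 1.44. The closest outside the 10 were Gm26691 (0.684), Ackr2 (0.711), Gm10600 (0.727), Ano2 (0.746) and Serpina9 (0.760). Ackr2, a scavenging chemokine receptor, ranged from 6.4 to 9.0 normalized counts in WT libraries and from 13.8 to 19.5 in HAR123-KO, and Ano2, a calcium-activated chloride channel, 12.4 to 20.3 and 29.1 to 38.9. Ttr ranked 29 in this order, its ratio being larger than that of the pool. The closest genes had log2 fold changes of 1.02 (Serpina9) to 1.49 (Gm26691), below the 2.04 of the pool. The measure says nothing of shared cells or control.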

How the data were processed

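RNA-seq was performed on 4 WT and 4 HAR123-KO samples of frontal cortex. The deposited values are raw read counts, which the authors made with STAR (version 2.5.2b), GRCm38 and featureCounts on Ensembl release 96, per the submitters' processing notes and the study's methods. Strand and multi-mapped read settings are not given in the sources used here. All 55536 identifiers matched GENCODE M21, the source of symbols and exon lengths, and 0 columns of per-sample values were left unused. Group and replicate number came from the titles. Nothing states that replicates are separate animals, so p-values measure only the spread between these samples. The spread within a genotype was little above counting error. Chi-square per degree of freedom, over nuclear protein-coding genes with 20 or more counts in a pair, was 1.21 to 1.30 for 12 within-genotype pairs. It was 1.58 to 1.72 for 16 between-genotype pairs. DESeq2 1.42.0 (R 4.3.3, Wald test, genotype as the only term, Benjamini-Hochberg adjustment, independent filter alpha 0.1) was fitted on all genes, with edgeR 4.0.16 as an alternative, and both were tested on simulated data with 200 changed genes. Intervals are exact at 95%. The 10 genes, the 12 other lists (140 genes) and the naming rule were chosen with earlier results of these data known. Named besides the 10 were Ttr, listed genes past the threshold, up to 3 further genes per list by mean, 5 genes of similar profile and overlapping genes. A few listed genes that this rule names are not reported here.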

Additional observations from a re-analysis of the deposited data

Results flagged for a closer look

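A library was set apart from the other 3 of its genotype when its gap to the nearest, over the range, exceeded Dixon's 95% value. Of 69 groups examined, 10 had such a library. Chance sets apart about 1 in 20 groups, but that rate does not apply where the other 3 libraries are at 0, which sets the last apart whatever its value (Otx2, Sostdc1 and Kcne2 in WT), or to pools that share most of their genes. HAR123-KO replicate 3 had 174.3 pooled normalized counts of the 10 choroid plexus genes, against 126.6 to 134.1 in the others, and 137.3 against 94.2 to 97.9 without Kl. F5 had 2.25 in WT replicate 1 against 4.12 to 4.28, Otx2 0.847 in WT replicate 3 against 0, Sostdc1 3.38 in WT replicate 1 against 0, Kcne2 0.847 in WT replicate 3 against 0, and Tmem72 12.4 in WT replicate 2 against 0.847 to 2.14. Among list sums, the endothelial one was 411.7 in HAR123-KO replicate 2 (387.1 to 391.1 in the others), the cortical one 6883 in HAR123-KO replicate 4 (6565 to 6592), and the folate one 296.7 in HAR123-KO replicate 2 (333.9 to 338.1).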

How the results depend on the processing

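All 128 alternative fits of the single genes kept a higher level in HAR123-KO, and 3 moved by over 1 SE (Kl to 2.38 without WT replicate 4, Clic6 to 1.999 without WT replicate 3, Sostdc1 to 4.97 without WT replicate 1). The pooled log2 ratio ran from 1.93 to 2.12 (2.25 to 2.57 for the low-count pool, whose main value was 2.40) when each library was left out, and fell to 1.83 and 1.81 without genes that share exon bases. Of all genes, 38 were past the threshold, 73 by edgeR, 3 at the stricter limits (adjusted p under 0.01, log2 fold change over 1), 215 with no minimum fold (an alternative chosen after seeing the data), and 11 to 44 when 1 library was left out (11 without HAR123-KO replicate 4, 18 without WT replicate 3). Of the 10 genes, 1 was past it, 4 by edgeR or with a minimum of 10 counts, 2 with library totals as size factors, 5 with no filter, and 0 to 5 when 1 library was left out. The count was 0 without WT replicate 3, WT replicate 4, HAR123-KO replicate 1 or HAR123-KO replicate 4, where the filter left none of the 10 with an adjusted p, and 5 without WT replicates 1 or 2, 4 without HAR123-KO replicate 2 and 2 without HAR123-KO replicate 3. Of other choroid plexus genes 1 was called by edgeR, 1 with no minimum fold and 0 to 1 when 1 library was left out (1 without WT replicate 2). With no minimum fold, 1 leptomeningeal, 2 cortical, 8 striatal and 1 ion transport gene were called, and 0 striatal genes at the stricter limits.

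The replicate numbers do not pair the samples: same-numbered libraries of the genotypes had correlations of deviations from -0.0154 to 0.0177, and 2 of 8 libraries correlated best with their own number. With the replicate number as a block, 9 genes in all, 2 of the 10 (Kl and Mfrp) and 1 striatal marker were past the threshold. Depth limits Mfrp, Otx2, Sostdc1, Kcnj13, Folr1 and Slc4a5, which had at most 12 raw counts over the WT libraries.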
